A study of Mus musculus with 3 samples.

Results

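Transporters for amino acids, peptides and monocarboxylates are found in several families of solute carriers. The ESRRA binding sites at the genes of 9 such families in the mouse duodenum are described here. The genes were taken by symbol from the GENCODE M1 annotation of the mm9 genome, as every protein-coding gene named Slc1a, Slc3a, Slc6a, Slc7a, Slc15a, Slc16a, Slc36a, Slc38a or Slc43a followed by digits. This gave 78 genes of 22225 protein-coding gene symbols. A peak was linked to a gene where its midpoint lay within 30 kb of an annotated transcript start site, and 19 of the 1639 ESRRA peaks were linked in this way to 11 of the 78 genes. The remaining 67 genes had no such peak. The rule used the symbols of the genes and no measured value, although the families were picked with earlier results of these data known.

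The chromatin came from wild-type C57BL/6 mice on regular chow, from adult villus cells of duodenal epithelium, and gave 2 libraries of ESRRA ChIP-seq and 1 input library. The cells were taken as the large fragments held back by a filter, and no knockout library was among the samples. Both ChIP libraries were merged before peaks were called, so that the data are 1 list of positions, each 601 bp wide, with no height or p-value. No value below has a replicate error, and read depth is unknown from the list. Intervals are 95% Wilson intervals and cover counting error only. A list of positions holds no RNA level, so that neither the expression of these genes nor the cell type given by the labels was examined.

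ESRRA, the estrogen-related receptor alpha, is a nuclear receptor that binds DNA at the half-site AAGGTCA, most strongly in the extended form TCAAGGTCA, and is best known at genes of mitochondrial energy metabolism. In the villus, dietary amino acids and short peptides enter enterocytes through sodium- or proton-coupled carriers of the brush border and leave through exchangers and facilitated carriers of the basolateral membrane. Some carriers work only as a pair of a heavy chain of the Slc3a family and a light chain of the Slc7a family. Monocarboxylate carriers of the Slc16a family move lactate, pyruvate, ketone bodies or, in some members, aromatic amino acids and thyroid hormones.

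A choice of the sites with the ESRR sequence is shown first, to let their letters be compared. The genes are those listed for intestinal uptake, release and monocarboxylate transport, with Slc6a8 and Slc16a5, which are in none of these lists. It holds 8 of the 14 AAGGTCA sites of the linked peaks and 2 sites of Slc15a1 that enter none of the counts below. Each line gives 29 bases of mm9 read in the direction of the site, with the 9 bases of the extended half-site in capitals.

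Slc15a1, first intronic peak, chr14:121873195-121873223, plus strand: aactcctcctTCAAGGTCAttagcttgtc
Slc15a1, second intronic peak, chr14:121862734-121862762, minus strand: gaaaaccagtTCAAGGTCAtccttggcta
Slc16a5, far upstream peak, chr11:115308756-115308784, plus strand: tgccacaagtTCAAGGTCAgcctaggtta
Slc43a1, peak at the start of Timm10, chr2:84667547-84667575, minus strand: agtgtccagcTCAAGGTCActcgcgatgt
Slc6a19, upstream peak, chr13:73848781-73848809, plus strand: agggtagcacCCAAGGTCAcggcatgact
Slc6a6, intronic peak, chr6:91635942-91635970, minus strand: agagaactacCCAAGGTCAccattaagag
Slc16a1, promoter peak, chr3:104443024-104443052, minus strand: agcgtctcccCCAAGGTCAccgggcacca
Slc16a5, promoter peak, chr11:115324850-115324878, plus strand: agagctcttcCCAAGGTCAccttcctgag
Slc43a2, intronic peak, chr11:75348628-75348656, plus strand: ttgagagactTGAAGGTCActcccacaaa
Slc6a8, downstream peak, chrX:70930891-70930919, plus strand: gaagtaagcaGTAAGGTCAtggacctgtc

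The first 4 of these lines hold the full sequence TCAAGGTCA, which was present at 2 of the 14 sites in the linked peaks, and the others hold AAGGTCA after other bases. In Slc6a19, Slc6a6, Slc16a1 and the Slc16a5 promoter those 2 bases were CC. Both Slc15a1 sites lie in peaks farther than 30 kb from a start site, which are outside the 19 linked peaks and are described at the end.

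The share of transporter genes with a linked peak was 14.1% (11 of 78, Wilson interval 8.06 to 23.5%), where 8.79% of all protein-coding genes had one. At this distance the background lay inside the interval. Other solute carrier genes had a peak within 30 kb in 33 of 257 cases (12.8%). Within 1 kb of a start site, the range taken as the promoter, 4 transporter genes had a peak (5.13%, interval 2.01 to 12.5%), against a background of 2.09%. These 4 were Slc3a2, Slc16a1, Slc16a5 and Slc43a2. Within 5 kb the count was 6 genes (7.69%, interval 3.57 to 15.8%) beside a background of 3.39%. Within 10 kb, 10 transporter genes had a peak (12.8%, interval 7.12 to 22.0%), with a background of 4.66% and 8.56% of the other solute carrier genes. Slc6a8, Slc6a19, Slc15a5 and Slc38a10 came in at 10 kb only through starts of transcripts not annotated as coding. From coding starts their nearest peaks lay 10059, 10495, 18595 and 49927 bp away. The peak that linked Slc15a5 within 10 kb was also repeated sequence (median 3327 copies). No share from coding starts alone is given at this distance. Widening the distance to 50 kb gave 15 genes (19.2%, background 12.4%), and 100 kb gave 20 genes (25.6%, background 19.8%). The background lay below the interval at 5, 10 and 20 kb (at 20 kb 6.73%, against 14.1% with an interval of 8.06 to 23.5%), and inside it at 1, 30, 50 and 100 kb. The share of the other solute carrier genes lay inside the interval at 5, 10 and 20 kb too (4.67, 8.56 and 10.1%). The intervals treat genes as independent, and the difference from the background was not tested, since genes are not replicates.

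**Figure D1:**
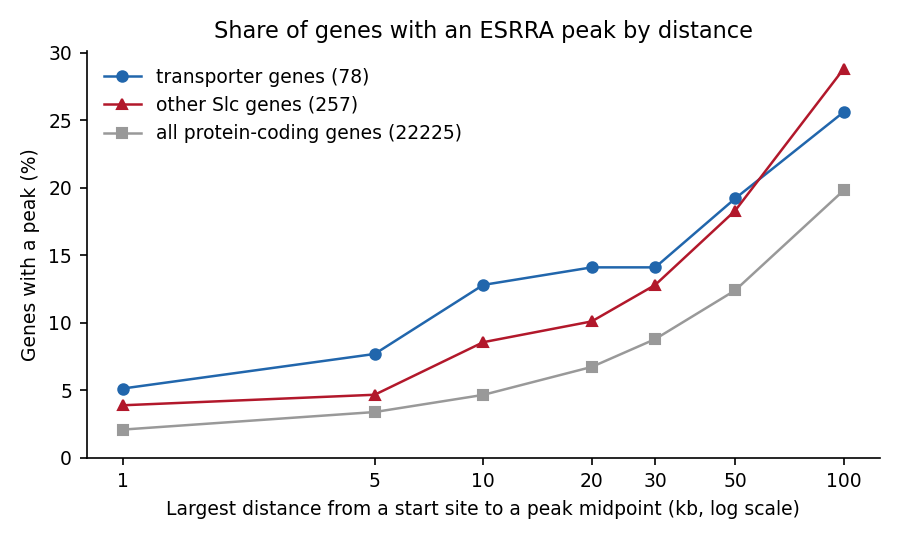
Share of genes with an ESRRA peak (y axis, percent) by the largest distance allowed between a transcript start site and a peak midpoint (x axis, kb, log scale), for the 78 transporter genes (circles), 257 other solute carrier genes (triangles) and 22225 protein-coding genes (squares). The transporter genes do not gain a gene between 20 and 30 kb, and the other solute carriers have the highest share at 100 kb (28.8%).

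The peaks were counted by family, beside the background of 8.79% of all protein-coding genes and without a test. The Slc6a family, sodium- and chloride-coupled carriers of amino acids, taurine, creatine and neurotransmitters, had a linked peak at 4 of 17 genes: Slc6a6, Slc6a8, Slc6a18 and Slc6a19. The Slc16a family had one at 2 of 14 genes, Slc16a1 and Slc16a5, and the small Slc43a family of facilitated carriers of large neutral amino acids at 2 of 3, Slc43a1 and Slc43a2. The Slc3a family of heavy chains had one at 1 of 2 genes (Slc3a2), the proton-coupled peptide carriers of Slc15a at 1 of 5 (Slc15a5), and the sodium-coupled Slc38a family at 1 of 11 (Slc38a10). None of the 7 Slc1a genes, 15 Slc7a genes and 4 Slc36a genes had a peak within 30 kb, counts that are near the background in families of this size. The median distance to the nearest peak was 754 kb in Slc1a, 968 kb in Slc7a and 76.4 kb in Slc36a.

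**Figure D2:**
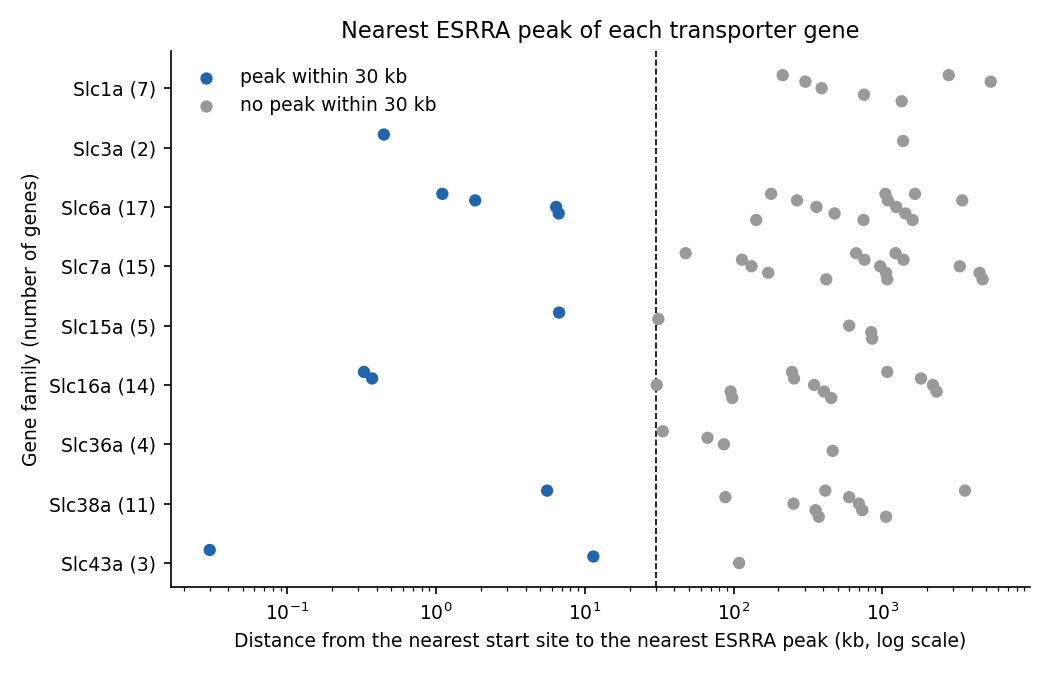
Distance from the nearest transcript start site of each of the 78 genes to its nearest ESRRA peak (x axis, kb, log scale) by family (y axis, with the number of genes). Each point is a gene, blue with a peak within 30 kb (dashed line), and the 11 blue points lie at 0.03 to 11.4 kb, apart from the grey points, which begin at 30.4 kb.

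Properties of the genes with and without a linked peak are given as a description, and their ranges overlapped. The 11 genes with a peak had a median of 6 annotated start sites (range 1 to 12) and 5 other protein-coding genes within 100 kb (range 0 to 13). The 67 genes without one had a median of 3 start sites (range 1 to 14) and 3 such neighbours (range 0 to 11). The rule counts every start site, so that more start sites give a gene more chances of a link, and their part in the result was not tested. The median gene length was 24.7 kb in the first and 34.8 kb in the second group.

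Among the 9 genes listed for uptake across the brush border, 2 had a linked peak, Slc6a6 and Slc6a19 (22.2%, beside the background of 8.79%). Slc6a19 encodes B0AT1, the main sodium-coupled carrier of neutral amino acids in the small intestine, and had 2 linked peaks. The nearer one (chr13:73848423-73849023) was intergenic, 6410 bp upstream of an annotated start site of Slc6a19. That start belongs to a transcript annotated as processed, and the nearest start of a coding transcript lay 10495 bp away. This peak held 1 AAGGTCA, centred 72 bp from the midpoint. The other (chr13:73816267-73816867) lay 13135 bp downstream of the start of a processed transcript of Slc6a19, and 1096 bp upstream of Slc6a18, the next gene and a close relative that carries neutral amino acids mainly in kidney. It was the one peak linked to more than 1 of the 78 genes, held AGGTCA once in the form ACGAGGTCA and held no AAGGTCA.

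The middle 300 bases of the upstream Slc6a19 peak (chr13:73848574-73848873, plus strand, intergenic) are given with AGGTCA or its reverse complement in capitals, to show the single half-site in its surroundings.

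Slc6a19: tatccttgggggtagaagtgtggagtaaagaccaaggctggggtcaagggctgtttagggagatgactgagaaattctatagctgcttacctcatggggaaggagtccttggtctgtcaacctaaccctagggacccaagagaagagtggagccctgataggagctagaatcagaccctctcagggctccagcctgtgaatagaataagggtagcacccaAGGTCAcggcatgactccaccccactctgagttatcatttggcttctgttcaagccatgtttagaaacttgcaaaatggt

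Slc6a6 encodes TauT, the sodium-coupled taurine carrier. Its peak (chr6:91635593-91636193) lay in an intron, 1832 bp downstream of its single annotated start site, with no exon in the 601 bases and no other protein-coding start within 30 kb. It held CCAAGGTCA 63 bp from the midpoint and a second half-site, CTCAGGTCA, 235 bp away. The middle 300 bases (chr6:91635744-91636043, plus strand, intron) are shown for comparison with Slc6a19, and their capitals mark the reverse complement of AGGTCA.

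Slc6a6: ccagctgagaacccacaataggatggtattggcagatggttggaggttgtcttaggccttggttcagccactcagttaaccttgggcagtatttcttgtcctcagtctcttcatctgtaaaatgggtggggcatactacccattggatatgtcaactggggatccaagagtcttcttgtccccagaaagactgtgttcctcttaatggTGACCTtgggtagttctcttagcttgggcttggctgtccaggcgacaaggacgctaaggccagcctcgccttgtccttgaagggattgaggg

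The remaining 7 brush-border genes had no peak within 30 kb. These were the glutamate carrier Slc1a1 (nearest peak 304 kb away), the neutral amino acid exchanger Slc1a5 (214 kb), Slc6a14 (1050 kb), the heavy chain Slc3a1 (1380 kb) and its light chain Slc7a9 (1230 kb). The proton-coupled carriers Slc36a1 and Slc15a1 had their nearest peaks at 86.1 and 31.2 kb. The cystine and dibasic amino acid pair of Slc3a1 and Slc7a9 thus had no peak within 1000 kb of either chain.

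Of the 8 genes listed for exchange or release across the basolateral membrane, 3 had a linked peak (37.5%, beside the background of 8.79%): Slc3a2, Slc43a1 and Slc43a2. Slc3a2 encodes the heavy chain CD98, which takes several Slc7a light chains to the membrane. Its peak (chr19:8787642-8788242) lay in a coding exon, 445 bp downstream of a start site, with 411 of its 601 bases in coding sequence. It held no AGGTCA in any form. None of the 6 light chains that pair with it (Slc7a5, Slc7a6, Slc7a7, Slc7a8, Slc7a10 and Slc7a11) had a peak within 30 kb, and their nearest peaks lay 47.6 to 968 kb away. In a group of this size, the absence of a linked peak is near the background of 8.79%. This group of light chains was chosen after the distances were seen.

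The middle 300 bases of the Slc3a2 peak (chr19:8787793-8788092, plus strand), of which 261 are exonic, are shown as a promoter peak without a half-site, and hence without capitals.

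Slc3a2: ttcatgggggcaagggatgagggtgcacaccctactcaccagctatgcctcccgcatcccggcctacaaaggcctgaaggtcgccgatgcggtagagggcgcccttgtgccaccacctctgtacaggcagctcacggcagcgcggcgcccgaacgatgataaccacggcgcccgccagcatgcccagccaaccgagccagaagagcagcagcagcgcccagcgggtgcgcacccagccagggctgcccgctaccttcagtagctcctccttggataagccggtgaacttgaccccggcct

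Slc43a2 encodes LAT4, a basolateral carrier that lets large neutral amino acids leave the cell, and had 4 linked peaks in 1 run, a chain of peaks with gaps of at most 30 kb. The nearest (chr11:75344975-75345575) was centred 30 bp downstream of a start site, in an untranslated exon, and held no AGGTCA. A peak 2916 bp downstream (chr11:75348263-75348863), in an intron, held TGAAGGTCA 79 bp from its midpoint and 2 further AGGTCA sites. Another (chr11:75374112-75374712) lay 89 bp from the start of a transcript with a retained intron, in the distal part of the gene, and held CTTAGGTCA alone. The last (chr11:75323313-75323913) lay 21583 bp upstream of Slc43a2 but 17 bp from a start site of Rilp, and held AAGGTCA 3 times. Thus 3 of the 4 peaks were nearer to Slc43a2 than to any other protein-coding gene, and 2 of those 3 lay within 1 kb of one of its start sites.

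Slc43a1 encodes LAT3, a carrier of the same substrates. Its single linked peak (chr2:84667279-84667879) was 11428 bp upstream of it and 38 bp from a start site of Timm10, which encodes a chaperone of protein import into mitochondria. The midpoint was in an untranslated exon of Timm10, and the peak held TCAAGGTCA 18 bp away. The other basolateral genes had no peak within 30 kb. The nearest peak of Slc7a7 was 47.6 kb away, at 193 bp from a start site of Oxa1l, which encodes an insertase of the mitochondrial inner membrane. Those of Slc7a6, Slc38a5, Slc7a8 and the aromatic amino acid carrier Slc16a10 lay at 114, 253, 420 and 2320 kb.

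Among 5 listed monocarboxylate carriers, Slc16a1 alone had a linked peak (20.0%, beside the background of 8.79%). Slc16a1 encodes MCT1, the widely expressed carrier of lactate, pyruvate, ketone bodies and short-chain fatty acids. Its peak (chr3:104442618-104443218) was centred 327 bp downstream of its single start site, in an intron, and had the highest GC content of the 19 peaks (72.7%). No other protein-coding gene began within 30 kb. The peak held CCAAGGTCA in this intron, 120 bp from the midpoint. The middle 300 bases (chr3:104442769-104443068, plus strand, intron) are shown because the distance rule links this promoter peak to no other protein-coding gene. The reverse complement of AGGTCA is in capitals.

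Slc16a1: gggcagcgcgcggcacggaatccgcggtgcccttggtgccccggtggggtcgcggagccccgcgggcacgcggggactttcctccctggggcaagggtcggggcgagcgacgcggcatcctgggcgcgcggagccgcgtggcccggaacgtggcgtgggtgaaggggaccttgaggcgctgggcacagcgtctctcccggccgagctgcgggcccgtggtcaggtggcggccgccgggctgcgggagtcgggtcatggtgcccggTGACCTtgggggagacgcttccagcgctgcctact

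The nearest peaks of Slc16a8, Slc16a3, Slc16a4 and Slc16a7 lay 30.4, 98.1, 406 and 1820 kb away. The peak next to Slc16a8, a carrier best known from retinal pigment epithelium, was 263 bp from a start site of Baiap2l2.

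Slc16a5, which encodes the carrier MCT6, had the most linked peaks of the 78 genes, 5 peaks that formed 1 run. The promoter peak (chr11:115324443-115325043) was 371 bp upstream of the start of a processed transcript and 923 bp downstream of a coding one, in an intron of Slc16a5, and held CCAAGGTCA 121 bp from its midpoint. The midpoint also lay in a noncoding exon of Gm11695. The nearest start site of any gene, not a protein-coding one, was 25 bp away. An intergenic peak 4091 bp upstream (chr11:115319397-115319997) held TAAAGGTCA and 2 further AGGTCA sites. The other 3 were nearer to other protein-coding genes. Those at 15017 bp (chr11:115308471-115309071) and 14156 bp upstream (chr11:115309332-115309932) lay 6912 and 7773 bp from a start site of 4933422H20Rik. Start sites of genes that are not protein-coding were nearer, at 603 and 258 bp. The first of this pair held TCAAGGTCA centred 1 bp from its midpoint, and the second held AGAAGGTCA. The downstream peak (chr11:115335960-115336560) was 721 bp from Armc7 and held no AGGTCA.

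The last 3 genes with a peak were in none of the lists above. Slc6a8 encodes the creatine carrier. Its peak (chrX:70930605-70931205) was intergenic, 6673 bp downstream of its nearest start site, and held AGGTCA 4 times, among them GTAAGGTCA at the midpoint itself. That start belongs to a transcript with a retained intron, and the nearest coding start lay 10059 bp away. Slc15a5, a relative of the peptide carriers, had an intergenic peak 19987 bp upstream (chr6:138048124-138048724) with TGAAGGTCA 11 bp from the midpoint. Its second peak (chr6:137973037-137973637), in an intron, was repeated sequence: its 24-base words had a median of 3327 copies in the genome, and it held no AGGTCA. Reads from such sequence cannot be assigned to 1 place. Slc38a10 had 1 peak (chr11:119962433-119963033), 5569 bp from the start of a processed transcript, 49927 bp from its coding start and 2491 bp from 1810043H04Rik.

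**Figure D3:**
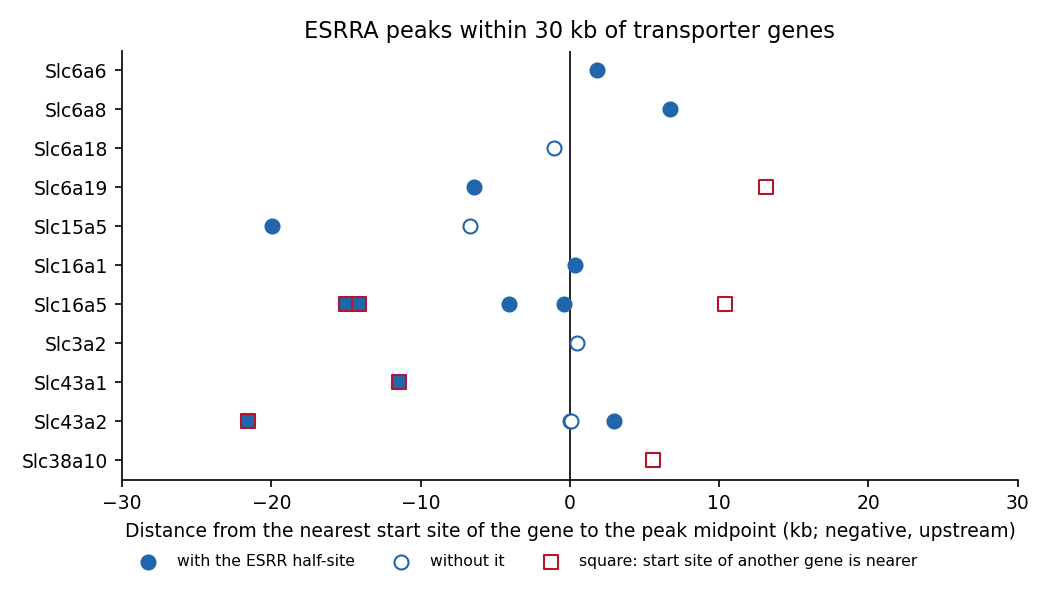
Position of each linked peak relative to the nearest start site of its gene (x axis, kb, negative upstream), 1 row for each of the 11 genes. Filled symbols hold the half-site AAGGTCA and squares are peaks that lie nearer to a start site of another protein-coding gene. Slc16a5 and Slc43a2 have 5 and 4 peaks, and the peaks of Slc43a2 at 30 and 89 bp overlap in the plot.

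Across the 19 peaks, 10 lay upstream and 9 downstream of the nearest transporter start site, at 30 to 21583 bp (median 5569 bp). The nearest protein-coding start site belonged to a transporter gene for 13 peaks and to another gene for 6. With peaks assigned to their nearest gene alone, 9 transporter genes kept one (11.5%, where 4.4% of all protein-coding genes did), and Slc38a10 and Slc43a1 were lost. A start site of a protein-coding gene outside the 78 lay within 30 kb of 14 of the 19 peaks, so that a link by distance does not single out the transporter. Of the 19 peaks, 18 were single-copy in the genome, and 9 overlapped an annotated exon.

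The midpoint of 10 of the 19 peaks (52.6%, interval 31.7 to 72.7%) lay within 1 kb of a start site of any gene, as did 479 of the other 1620 peaks (29.6%). The rule itself takes peaks near start sites, so that a test of this difference would be no support and is not given here. Among the 1230 other peaks that also lay within 30 kb of a protein-coding start the share was 37.6% (odds ratio 1.84 by Fisher's exact test, two-sided p = 0.23). The median GC content was 54.6% in the 19 peaks (range 43.4 to 72.7%) and 48.8% in the others.

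The DNA sequence was not used by the rule. The half-site AAGGTCA was found in 12 of the 19 peaks (63.2%, interval 41.0 to 80.9%) and in 6 of 38 equally wide windows at a distance of 2 kb (15.8%). By Fisher's exact test, two-sided, this was an odds ratio of 9.14 with p = 0.0006. This test took the windows as independent of the peaks they flank, so that their pairing was not used. The odds ratio ranged from 7.86 to 13.0 when each of the 11 genes was left out in turn. Against the other 1620 peaks, of which 43.8% held the half-site, Fisher's exact test gave an odds ratio of 2.2 (two-sided p = 0.11). Against the other single-copy peaks, 51.2% of which held it, the same exact test gave 1.91 (two-sided p = 0.24). With 1 peak per gene, since 9 of the 19 peaks lay in runs, the odds ratio against flanks was 7.6 (Fisher's exact test, two-sided p = 0.033). Thus the peaks at transporter genes differed from their flanks, and a difference from the remaining peaks was not detectable with 19 peaks. The paper reports enrichment of ESRR motifs in the ESRRA-bound regions as a whole, so that the comparison with flanks does not single out transporter genes.

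The extended form TCAAGGTCA was found in 2 of the 19 peaks (10.5%, interval 2.94 to 31.4%), in 1 of the 38 flanks (2.63%) and in 14.3% of the other peaks. These 2 were the far upstream peak of Slc16a5 and the Timm10 peak linked to Slc43a1, and a start site of another gene was nearer in both. TC thus preceded 2 of the 14 AAGGTCA sites in the transporter peaks (14.3%), and 32.3% of 982 sites in the other single-copy peaks. CC preceded 4 of the 14 sites (28.6%) and 18.8% of the others, and TG preceded 3 sites (21.4%) and 7.84%. With 14 sites these shares are given without a test.

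Of the 14 AAGGTCA sites, 5 (35.7%) had their centre at most 50 bp from the midpoint, the main setting, against 17.0% for evenly spread positions (two-sided exact binomial test p = 0.074). At most 100 bp from it lay 9 sites (64.3%), against 33.8% (two-sided exact binomial test p = 0.022). These tests took sites as independent, although the 14 lay in 12 peaks and 3 of them in the peak near Rilp. Among single-copy peaks near transporter genes, 6 of 9 in runs and 6 of 9 alone held the half-site. Among the other single-copy peaks it was held by 37.3% of 526 in runs and by 60.7% of 771 alone, and these shares were not tested against each other.

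**Figure D4:**
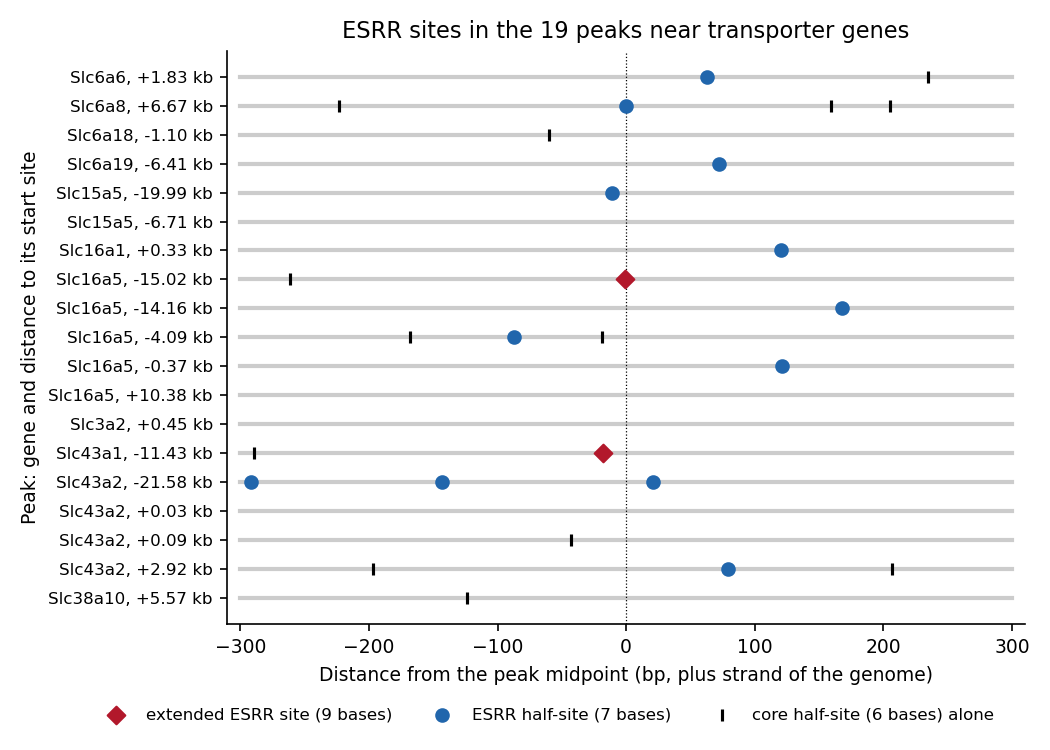
Position of ESRR sites (x axis, bp from the peak midpoint on the plus strand) in each of the 19 peaks, 1 row a peak, named by its nearest transporter gene and distance. Diamonds mark TCAAGGTCA, circles AAGGTCA after other bases and ticks AGGTCA alone. The diamonds of Slc16a5 and Slc43a1 lie 1 and 18 bp from the midpoint, and 4 rows have no site.

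The core AGGTCA was present in 15 of the 19 peaks (78.9%), in 44.7% of the flanks and in 61.4% of all peaks. Short sequences of other intestinal factors were counted on both strands in the same way. The letters CAAAGTCC, bound by HNF4 receptors, were in 1 peak (5.26%), upstream of Slc16a5, and in 6.04% of all peaks. AGATAAG, bound by GATA factors, was in 2 peaks (10.5%, all peaks 9.88%), at Slc6a8 and Slc43a2. TTTATGG, a CDX sequence, was in none of the 19, which allows a share of up to 15.8%, and in 6.59% of all peaks. The AP-1 sequence TGANTCA was in 5 peaks (26.3%, all peaks 17.4%) and GGGCGGG, bound by SP and KLF factors, in 4 (21.1%, all peaks 15.4%), among them the promoter peaks of Slc16a1, Slc16a5 and Slc43a2. AGGTCA lies within AAGGTCA, and AAGGTCA within TCAAGGTCA, so that these 3 counts overlap.

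**Figure D5:**
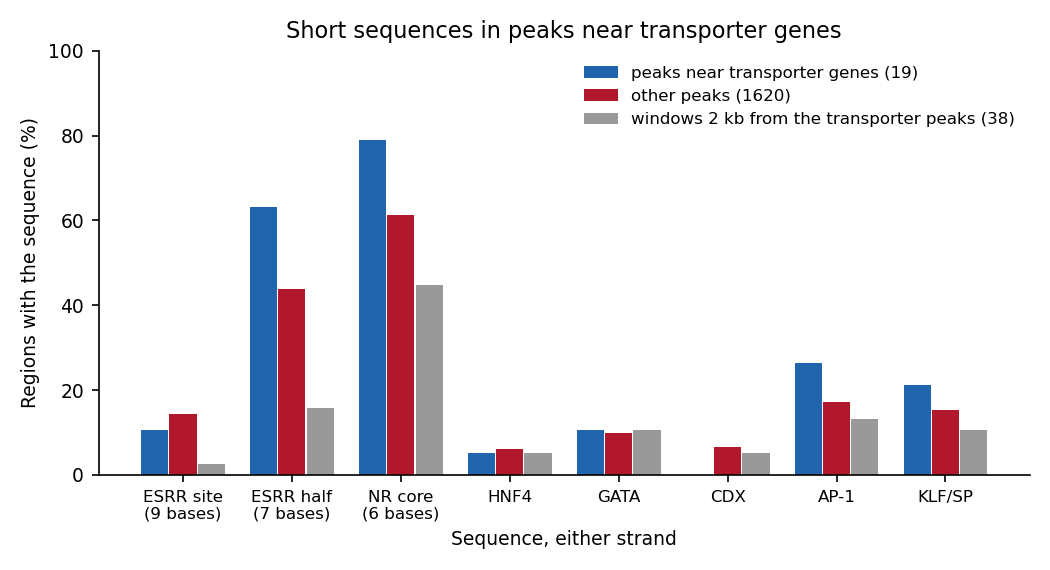
Share of regions with each of 8 short sequences on either strand (y axis, percent) in the 19 peaks near transporter genes, the 1620 other peaks and 38 windows 2 kb from the transporter peaks. The ESRR half-site has the widest gap between the transporter peaks (63.2%) and their flanks (15.8%).

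Genes at the edge of the distance rule were few. The largest nearest distance among the 11 genes was 11.4 kb (Slc43a1), and the smallest among the 67 was 30.4 kb (Slc16a8), followed by 31.2 kb (Slc15a1) and 33.4 kb (Slc36a3). Slc15a1 encodes PEPT1, the proton-coupled peptide carrier of the brush border. It had 2 peaks in its own introns, 31208 and 41676 bp downstream of its single start site (chr14:121872967-121873567 and chr14:121862499-121863099). Each was single-copy, held TCAAGGTCA once and AGGTCA 3 times in all, and had no protein-coding start site within 30 kb, so that the distance rule assigned both to no gene. The TCAAGGTCA sites were centred 58 and 51 bp from the midpoints. The nearer peak, which is shown in its middle 300 bases (chr14:121873118-121873417, plus strand, intron) with AGGTCA or its reverse complement in capitals, is the one nearest to a start site of this gene.

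Slc15a1: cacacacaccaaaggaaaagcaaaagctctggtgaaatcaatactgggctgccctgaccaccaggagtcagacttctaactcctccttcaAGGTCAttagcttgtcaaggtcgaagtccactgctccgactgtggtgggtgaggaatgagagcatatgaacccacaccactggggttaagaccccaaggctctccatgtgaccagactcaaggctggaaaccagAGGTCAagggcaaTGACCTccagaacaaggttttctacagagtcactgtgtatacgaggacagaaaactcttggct

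Of the 67 genes without a linked peak, 58 had none within 100 kb and 24 none within 1000 kb. Within 100 kb, 19.8% of all protein-coding genes had a peak, beside 25.6% of the 78 transporter genes. No such share is given at 1000 kb. The 14 genes listed for uptake of neurotransmitters had their nearest peaks at 142 to 5360 kb. The 7 genes listed for amino acid supply in growing cells and for lysosomal sensing had theirs at 356 to 1080 kb. No gene of either list had a linked peak, which is near the background of 8.79% in lists of this size. A gene without a peak is a gene without a call at the authors' threshold, and binding below that threshold cannot be seen in this list.

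Partners of these carriers that the symbols do not cover were examined from a list of 12 genes, of which 4 had a linked peak (33.3%, beside the background of 8.79%). Slc9a3, the sodium-proton exchanger NHE3 of the brush border, had 2 linked peaks, 1 of them 584 bp downstream of its start site and with AAGGTCA. Slc9a3r1, a scaffold protein of the microvillus, had 4, of which the nearest was 827 bp downstream of a start site, and none held AAGGTCA. Pdzk1, another scaffold, had 1 peak 8984 bp downstream. Slc6a20b, a symbol that ends in a letter, had 2 peaks 618 and 1244 bp upstream, and the farther held TTAAGGTCA. The imino acid carrier Slc6a20a lay 45.0 kb from the farther of them. Tmem27, which pairs with Slc6a19 and its relatives in kidney, had its nearest peak 13200 kb away. The monocarboxylate carrier chaperones Bsg and Emb were 120 and 2270 kb from one, and the sodium-coupled carriers Slc5a8 and Slc5a12 2240 and 1280 kb. Slc32a1, a vesicular carrier of inhibitory neurotransmitters, was 1370 kb from a peak.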

How the data were processed

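ESRRA ChIP-seq was measured in 2 libraries, with 1 input library, grouped by their titles. The authors aligned reads to mm9 with Bowtie2 2.2.6 and merged both ChIP libraries with SAMtools 0.1.19 (versions also in the submitters' processing notes). Peaks were called with MACS2, at a p-value of 1e-05 by the name of the list. The authors deposited positions alone, in base pairs. How the peaks came to share 1 width, and the version of MACS2, are not given in the sources used here. Pooling hides peaks of 1 library and gives weak and strong peaks the same weight.

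Start sites were those of all transcripts of protein-coding genes in GENCODE M1 (NCBIM37, the build called mm9), and gene symbols with several records were counted once. Positions are counted from 1. Sequence was read from NCBIM37. A peak counted as multi-copy if its 24-base words had a median of over 10 occurrences genome-wide. Flanking windows lay 2 kb to each side and touched no peak. Fisher's exact tests (two-sided) took peaks as units, which are not independent animals, in Python 3.11.15 with SciPy 1.17.1, on functions tested on simulated data. Runs were chains of peaks at most 30 kb apart.

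The genes and lists were chosen with earlier results of these data known. Genes named were those with a linked peak and those of the brush-border, basolateral and monocarboxylate lists, and sequences were to be shown for the nearest peak of the absorptive genes and for peaks with TCAAGGTCA; those of Slc6a8, Slc16a1, the Slc16a5 promoter and the Slc43a2 intron were added after the values were seen. The alternatives concerned the distance, the symbols, the transcripts, copy number, the sequence counted, the flanks and the peaks compared. The values of 1 gene of the partner list are not reported here.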

Additional observations from a re-analysis of the deposited data

How the results depend on the processing

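The number of transporter genes with a linked peak was 9 to 15 under most alternatives (12 of 80 with symbols that end in a letter), and depended on the distance at its extremes: 6 genes within 5 kb and 20 within 100 kb. Within 30 kb it was 10 when start sites of coding transcripts alone counted (Slc38a10 lost) and 11 with single-copy peaks. Linked peaks numbered 29 within 100 kb, against 19 within 30 kb. Genes with a promoter peak numbered 4 to 6 in the 6 alternatives.

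The enrichment of AAGGTCA over flanks stayed past 0.05 with AGGTCA (odds ratio 4.63), flanks 10 kb away (0 of 36 windows, odds ratio at least 18.9 with the 0 set to 3 counts), 1 peak per gene (7.60), single-copy peaks, peaks within 10 kb and symbols with a letter. With TCAAGGTCA it was 4.35 (exact two-sided p = 0.26). It was 7.86 to 13.0 when each gene was left out, an alternative chosen after seeing the data. Against the other peaks the direction turned with TCAAGGTCA (odds ratio 0.704, exact two-sided p = 1.0); the leave-one-gene-out values were 1.71 to 2.57, and no alternative passed 0.05. The odds ratio of promoter peaks against all other peaks was 2.65, and 2.95 within 2 kb. The distance rule favours this direction, so that these values support nothing here and no test of them is given. The odds ratio was 2.28 with single-copy peaks, 1.84 with other peaks near a protein-coding start site and 1.99 with 1 peak per gene, none past 0.05. The central position of AAGGTCA, 2.1-fold within 50 bp, was 1.9-fold and past 0.05 within 100 bp. The cause of these changes was not tested.

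Leaving out a ChIP library could not be done on a merged list. No analysis paired by replicate was possible because the replicates were pooled into 1 list. Peaks and their own flanking windows were not compared as matched sets. The unknown depth limits every absence of a peak.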
